A study of Mus musculus with 19 samples.

Results

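Fragments of 7SK RNA, RNase MRP RNA and RNase P RNA were followed through small RNA libraries of mouse sperm. A read was taken as a member when it matched the GENCODE model of Rn7sk, Rmrp or Rpph1 in the sense direction with at most 1 mismatch, in each of the 19 libraries. These are 3 of the 6113 small RNA genes of the reference, and they held 218351 of 711662713 reads. Rn7sk took 177448 reads in 10970 distinct sequences, Rmrp took 30932 reads in 1052 sequences, and Rpph1 took 9971 reads in 1238 sequences. Antisense matches numbered 89, 37 and 56 reads, or 0.0502%, 0.120% and 0.562% of the sense reads.

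All sperm came from C57BL/6J wild type males. From 8 weeks of age the animals received daily oral gavage for 4 weeks, with dicyclohexyl phthalate (DCHP, a plasticizer) in the DCHP group and corn oil alone in the control group, and both groups ate normal chow. Sperm were taken from the cauda epididymis, filtered, and treated with a buffer that lyses somatic cells. Small RNA was sequenced by traditional RNA-seq and by PANDORA-seq, in which the enzymes AlkB (a demethylase of RNA bases) and T4 PNK (which repairs the phosphate groups at RNA ends) act on the RNA before adapter ligation. There were 4 PANDORA control, 5 PANDORA DCHP, 5 traditional control and 5 traditional DCHP libraries. The labels list DCHP gavage for every sample, so control and DCHP were taken from the sample titles, and although the study put sperm RNA of both exposure groups through both methods, no source states whether a replicate number marks the same mouse in both.

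The 3 RNAs are transcribed by RNA polymerase III from promoters that lie upstream of the gene. 7SK RNA binds HEXIM proteins and holds the kinase P-TEFb inactive, which restrains the elongation of RNA polymerase II. RNase P RNA is the catalytic RNA that removes the 5′ leader of precursor tRNAs, and RNase MRP RNA is its relative that acts in the processing of precursor rRNA in the nucleolus. Whole molecules of all 3 are longer than any read in these libraries, which run from 15 to 45 nt, so each read is a fragment.

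Positions below count from the first base of the RefSeq locus on GRCm38, with all 3 genes on the minus strand. Rn7sk lies at chr9:78175302-78175633, Rmrp at chr4:43492785-43493059, and Rpph1 at chr14:50807447-50807771. The GENCODE models cover positions 1 to 331 of Rn7sk, −3 to 277 of Rmrp and 5 to 323 of Rpph1.

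The commonest fragments show where each RNA was represented. For Rn7sk, the first 3 sequences below were the commonest in PANDORA-seq, and the last one is among the commonest short fragments of the traditional libraries. Capitals mark the read, and the lower-case letters are up to 5 neighbouring bases of the RNA.
Rn7sk 239-276: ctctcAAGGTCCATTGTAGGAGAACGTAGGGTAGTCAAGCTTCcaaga
Rn7sk 57-99: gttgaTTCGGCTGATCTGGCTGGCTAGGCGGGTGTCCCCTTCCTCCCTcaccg
Rn7sk 17-55: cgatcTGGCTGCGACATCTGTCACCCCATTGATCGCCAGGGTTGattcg
Rn7sk 55-70: gggttGATTCGGCTGATCTGGctggc
In the genome these reads lie at chr9:78175358-78175395, chr9:78175535-78175577, chr9:78175579-78175617 and chr9:78175564-78175579. The read at 239 to 276 matched Rn7sk and no other gene of the reference, whereas the read at 57 to 99 matched 5 genes, the read at 17 to 55 matched 7 and the short read at 55 to 70 matched 38. The reference holds 20 genes counted here as copies of Rn7sk, by a threshold of 10% shared stretches of 15 bases. Between 18.7% and 42.9% of the Rn7sk reads of a library matched no other gene.

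For Rmrp, 3 fragments with a common first base and different last bases are shown, because the methods differed in the last base. Here the capital marks the last base of the read.
Rmrp 1-29: agctcgctctgaaggcctgtttcctaggC
Rmrp 1-31: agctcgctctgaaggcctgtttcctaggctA
Rmrp 1-35: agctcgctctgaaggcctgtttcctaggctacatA
They lie at chr4:43493031-43493059, chr4:43493029-43493059 and chr4:43493025-43493059. Rmrp had no copy by the threshold used for Rn7sk, and every one of its reads matched no other small RNA gene. Its locus overlaps an exon of Ccdc107 on the opposite strand.

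For Rpph1, the first 3 sequences below were the commonest reads of PANDORA-seq, and the last 2 lead the traditional libraries. Capitals again mark the read and the lower-case letters its neighbours, and the bases past position 323 come from reads that run beyond the annotated model.
Rpph1 157-190: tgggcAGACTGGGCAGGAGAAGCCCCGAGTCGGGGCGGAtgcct
Rpph1 191-235: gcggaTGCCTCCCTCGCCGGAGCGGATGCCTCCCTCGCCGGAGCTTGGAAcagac
Rpph1 34-76: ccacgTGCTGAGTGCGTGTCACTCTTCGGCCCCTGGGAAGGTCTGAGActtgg
Rpph1 139-155: agagcAGGGCTCTACGCTTGGGcagac
Rpph1 286-326: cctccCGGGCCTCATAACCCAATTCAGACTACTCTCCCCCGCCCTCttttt
These reads lie at chr14:50807582-50807615, chr14:50807537-50807581, chr14:50807696-50807738, chr14:50807617-50807633 and chr14:50807446-50807486. The middle of Rpph1, positions 40 to 272, coincides with an annotated exon of Ccnb1ip1 at chr14:50807500-50807732 on the same strand. Of the Rpph1 reads that matched the annotated model, 70.3% to 88.6% in the PANDORA libraries and 76.8% to 97.0% in the traditional libraries lay wholly inside that exon. With a model extended by bases read past the annotated ends, the shares were 63.2% to 79.7% and 24.2% to 49.2%, so the order of the methods turned. Reads of RNase P RNA and of this Ccnb1ip1 exon cannot be told apart there. Rpph1 also had 3 copies by the threshold used for Rn7sk.

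The libraries held 21588335 to 56506344 reads. PANDORA-seq and traditional libraries differed over the whole of their content: reads of miRNA hairpins made up 1.06% to 1.40% of PANDORA-seq reads and 4.55% to 16.9% of traditional reads, reads of rRNA made up 26.0% to 36.7% and 5.37% to 7.11%, and the mean length of all reads was 31.6 to 34.1 nt and 28.5 to 30.4 nt. Levels below are reads per 1000000 deposited reads (RPM), and a level per total read therefore moves with every other class of RNA in the library. The 36 pairs of libraries within a group gave chi-square values per degree of freedom of at least 91.1, so no library appeared to be a copy of another. Traditional control replicate 2 stood apart with the highest share of miRNA reads, 16.9%, and results that rest on it are given without it below.

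Rn7sk was the most abundant of the 3 in every library but traditional DCHP replicate 5, where Rmrp stood at 194 RPM and Rn7sk at 114 RPM. Per kilobase of RNA, its mean level was 1005 RPM in PANDORA control, 1077 in PANDORA DCHP, 518 in traditional control and 448 in traditional DCHP. The mean levels per kilobase of Rmrp were 67.0, 60.8, 172 and 318 RPM, and those of Rpph1 were 75.5, 79.4, 12.2 and 15.0 RPM. Rmrp therefore ranked above Rpph1 per kilobase in the traditional libraries, whereas in the PANDORA libraries their ranges overlapped, at 19.1 to 108 RPM for Rmrp and 34.5 to 137 RPM for Rpph1.

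The level of Rn7sk in the 4 PANDORA control libraries was 380, 329, 321 and 300.0 RPM. In the 5 PANDORA DCHP libraries it was 367, 394, 251, 355 and 416 RPM. The traditional control libraries gave 209, 115, 283, 161 and 89.0 RPM, and the traditional DCHP libraries 126, 227, 164, 111 and 114 RPM. Every PANDORA control library lay above every traditional control library, and likewise under DCHP, while the control and DCHP ranges overlapped within each method. The means were 333 ± 34.2 (SD, n = 4), 356 ± 63.8 (n = 5), 171 ± 77.3 (n = 5) and 148 ± 48.9 RPM (n = 5), in the same order of groups.

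Rmrp showed the opposite order of the methods on this scale. Its level was 22.5, 15.0, 17.3 and 20.5 RPM in PANDORA control and 13.0, 22.6, 5.36, 14.04 and 30.4 RPM in PANDORA DCHP. It was 38.4, 81.9, 53.5, 31.7 and 36.6 RPM in traditional control and 32.1, 89.2, 46.9, 84.4 and 194 RPM in traditional DCHP. All PANDORA libraries lay below all traditional libraries, and the widest spread was that of traditional DCHP and was set by replicate 5, at 194 RPM against 89.2 RPM in the next library. The means were 18.8 ± 3.34, 17.1 ± 9.65, 48.4 ± 20.4 and 89.3 ± 63.3 RPM (SD, n as above).

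Rpph1 was at a low level in the traditional libraries and rested there on 58 to 255 reads a library. It was at 35.9, 21.2, 14.5 and 24.7 RPM in PANDORA control and 17.96, 30.4, 10.99, 23.8 and 43.6 RPM in PANDORA DCHP. It was at 3.88, 3.09, 5.14, 4.88 and 2.40 RPM in traditional control and 4.11, 6.35, 4.09, 4.87 and 4.48 RPM in traditional DCHP. The groups of the 2 methods did not overlap with this annotated model, and the means were 24.1 ± 8.97, 25.3 ± 12.4, 3.88 ± 1.16 and 4.78 ± 0.932 RPM (SD, n as above). With a model extended by bases read past its annotated ends the means were 26.8 ± 10.1, 30.1 ± 16.7, 8.66 ± 3.10 and 12.4 ± 5.48 RPM. On that model the DCHP libraries overlapped between the methods, at 12.2 to 55.6 RPM in PANDORA-seq and 7.99 to 19.7 RPM in traditional RNA-seq.

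**Figure D1:**
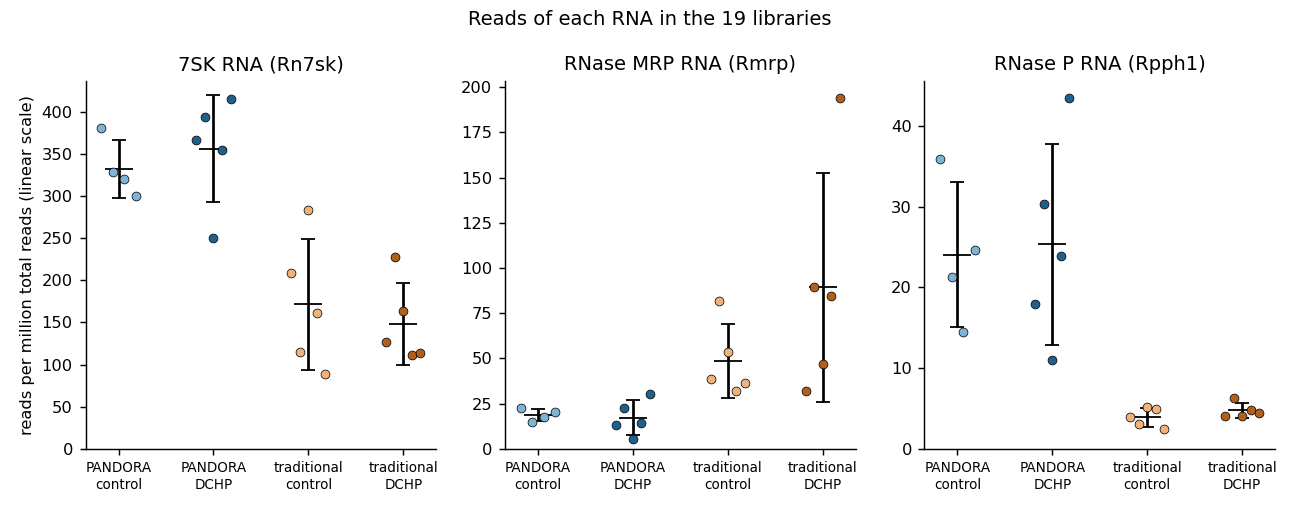
Level of Rn7sk, Rmrp and Rpph1 in RPM with the annotated models, in 1 panel per RNA, with 1 point per library in the 4 groups and bars for the mean ± SD. Within each exposure, PANDORA libraries lie above traditional libraries for Rn7sk (mean 333 and 356 against 171 and 148 RPM) and Rpph1 and below them for Rmrp. Control and DCHP libraries overlap within each method.

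The first question of the design is whether DCHP exposure changed these fragments. None of the 3 passed the test in either method. Read counts were compared by edgeR's quasi-likelihood test with Benjamini-Hochberg adjustment over all genes tested, and a gene was called at an adjusted p below 0.1 with a fold above 2. In PANDORA-seq the log2 fold change of DCHP over control was 0.10 for Rn7sk (SE 0.25, 95% interval −0.44 to 0.64), −0.14 for Rmrp (SE 0.41, −1.01 to 0.73) and 0.07 for Rpph1 (SE 0.40, −0.77 to 0.92), with an edgeR adjusted p of 0.995 each. The background in this comparison was 0.0% called, that is 0 of 822 genes by edgeR, with 30 genes at an unadjusted p below 0.05, and DESeq2 called 0 genes with 32 at that unadjusted p. These intervals bound a change of Rn7sk at less than 2-fold in either direction but leave a 2-fold fall of Rmrp within the interval.

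In traditional RNA-seq the log2 fold change was −0.21 for Rn7sk (SE 0.34, −0.96 to 0.54, edgeR adjusted p 0.787), 0.88 for Rmrp (SE 0.46, −0.12 to 1.89, adjusted p 0.396) and 0.30 for Rpph1 (SE 0.27, −0.28 to 0.88, adjusted p 0.622). The Rmrp value was 0.38 without traditional DCHP replicate 5, the library at 194 RPM. The background was again 0.0% called, with 0 of 1563 genes called by edgeR, 135 at an unadjusted p below 0.05 and a median log2 fold change over all genes of 0.31. DESeq2 on the same library sizes called 1 gene, with 228 at an unadjusted p below 0.05. Exact permutation tests of the RPM values, two-sided and unadjusted, gave p = 0.540, 0.746 and 0.881 for Rn7sk, Rmrp and Rpph1 in PANDORA-seq and 0.595, 0.190 and 0.238 in traditional RNA-seq. The share of genes whose control and DCHP libraries did not overlap in RPM was 0.487% in PANDORA-seq, against 0.704% in traditional RNA-seq, and none of the 3 was among them.

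Whether the response to DCHP depended on the method was tested as an interaction. The interaction was 0.31 on the log2 scale for Rn7sk, −1.02 for Rmrp (95% interval −2.40 to 0.35) and −0.22 for Rpph1, and none was called. Without traditional DCHP replicate 5 the Rmrp interaction was −0.52. The background was 0.0% called, with 0 of 1610 genes called by edgeR and 67 at an unadjusted p below 0.05. The study describes the PANDORA-seq libraries of a group as biological replicates. For the traditional libraries no such statement was found, so the spread that their p-values measure may be technical.

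The second question is how the method changed what was seen of each RNA. In controls, Rpph1 was higher in PANDORA-seq than in traditional RNA-seq, with a log2 fold change of 2.63 (SE 0.36, 95% interval 1.86 to 3.40, edgeR adjusted p 1.7e-05), and Rmrp was lower per total read, at −1.36 (SE 0.35, −2.12 to −0.60, adjusted p 0.0031), though not per miRNA read (below). The Rpph1 call ended, at 0.49 (edgeR adjusted p 0.236), with the extended model and without reads inside the Ccnb1ip1 exon. Rn7sk was higher by 0.96 (SE 0.34, 0.21 to 1.70, adjusted p 0.0224), which is under the 2-fold limit and was not called. The background is large: 72.2% of 1265 genes were called between the methods in controls, 16.9% as higher and 55.3% as lower in PANDORA-seq, with a median log2 difference over all genes of −1.53. Called genes among the 3 were 2 of 3, which is near that share. Without traditional control replicate 2 the differences were 2.56, −1.09 and 0.84 for Rpph1, Rmrp and Rn7sk, with the same calls, and Rn7sk passed the fold limit without PANDORA control replicate 4 (1.002), traditional control replicate 1 (1.04) or traditional control replicate 3 (1.21).

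Under DCHP all 3 were called. Rn7sk was higher in PANDORA-seq by 1.26 on the log2 scale (SE 0.27, 0.68 to 1.85, edgeR adjusted p 0.000834), Rpph1 by 2.41 (SE 0.36, 1.62 to 3.20, adjusted p 4.3e-05), and Rmrp was lower, at −2.39 (SE 0.55, −3.58 to −1.20, adjusted p 0.00136). The background was 76.7% of 1411 genes called, 13.8% as higher and 62.9% as lower, with a median of −1.94. The ratio of mean RPM in PANDORA-seq over traditional RNA-seq was 1.94 in controls and 2.40 under DCHP for Rn7sk, 0.389 and 0.191 for Rmrp, and 6.21 and 5.30 for Rpph1. With the annotated models the libraries of the methods did not overlap for any of the 3, as was the case for 67.2% of genes in controls and 68.0% under DCHP. Exact two-sided permutation tests of RPM gave p = 0.0159 for Rn7sk and Rmrp and 0.00794 for Rpph1 in controls, and 0.00794 for each under DCHP, which is the smallest p that 5 against 5 or 4 against 5 libraries gave here. With the Rpph1 model extended by bases read past its annotated ends, the ratio for Rpph1 fell to 3.09 in controls, where the libraries did not overlap, and to 2.42 under DCHP, where they did (exact permutation p = 0.0317).

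The direction for Rmrp depended on the scale. Counted per miRNA hairpin read in place of total reads, Rmrp was higher in PANDORA-seq by 1.15 in controls (edgeR adjusted p 0.0257, called) and by 0.32 under DCHP (adjusted p 0.518), while Rn7sk was higher by 3.27 and 3.70 and Rpph1 by 4.91 and 4.90. This scale counts every read that matched a hairpin, by mean 1.22% of PANDORA-seq and 7.56% of traditional reads. The miRNA lists given below differed between the methods by a larger factor, so values on this scale depend on which hairpin reads are counted. With TMM normalization Rmrp was at −0.41 (edgeR adjusted p 0.277) and −0.88 (adjusted p 0.0712), and neither was called. The median over all genes shifted from −1.53 to 0.85 in controls and from −1.94 to 0.61 under DCHP with the miRNA scale, which called 611 genes higher and 430 lower in controls against 214 and 699 on total reads, and 607 and 528 under DCHP against 195 and 887. TMM called 378 higher and 580 lower in controls and 404 and 655 under DCHP. On each of these scales Rn7sk, Rmrp and Rpph1 lay above the median of all genes in controls, whereas under DCHP Rmrp lay below it.

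Markers of sperm and of other cells moved with the method too. The summed level of a list of miRNAs typical of the epididymis was 2.63 to 42.8 RPM in PANDORA-seq and 553 to 4430 RPM in traditional RNA-seq, that of a sperm list 0.925 to 6.48 and 87.1 to 462 RPM, that of a blood list 0 to 0.265 and 3.32 to 93.7 RPM, that of a smooth muscle list 2.60 to 112 and 1366 to 6928 RPM, and that of Mir122, a liver miRNA, 3.74 to 129 and 783 to 70134 RPM. The lists hold 5, 5, 3, 2 and 1 miRNA hairpins of the reference, and all miRNA reads together took a smaller share of PANDORA-seq, though by a smaller factor. Their part in the levels of Rn7sk, Rmrp and Rpph1 was not tested. These are differences between methods that the study applied to sperm RNA of both exposure groups. Between control and DCHP sperm, fewer cells of a type and less RNA per cell cannot be told apart in bulk RNA.

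Coverage along the RNA differed in kind between the 3. Rn7sk reads came from inside the molecule and fell into separate stretches. In PANDORA-seq at least 5% of its reads covered each base of 15 to 99, of the 29 bases up to 229 and of 239 to 276, with peaks of 41.7% in the first and 32.9% in the last. In traditional RNA-seq the stretches were 5 to 34, 39 to 91, the 25 bases up to 225 and 239 to 276, with peaks of 34.9% in the second and 29.98% in the last. The stretch that begins at base 239 thus had the same limits in both methods, whereas the stretch in the 5′ part reached 99 in PANDORA-seq but 91 in traditional RNA-seq.

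Rmrp was represented almost wholly by its 5′ end. The covered stretch was 1 to 35 in PANDORA-seq, with a peak of 94.8% of reads, and 1 to 37 in traditional RNA-seq, with a peak of 98.0%. Rpph1 reads that matched the annotated model were mostly internal, at 34 to 77 and 139 to 247 in PANDORA-seq (peaks 30.3% and 36.5%) and at 45 to 81, 132 to 190, 209 to 246 and 306 to 309 in traditional RNA-seq (peaks 21.9%, 32.5% and 15.5% in the first 3). With a model extended by bases read past the annotated ends, the highest Rpph1 stretch in traditional RNA-seq was instead the 3′ end, 285 to 326, with a peak of 48.3% of reads. In PANDORA-seq the corresponding stretch was 295 to 326, with a peak of 11.9%. Traditional libraries also had a stretch at the 5′ end, 2 to 42, with a peak of 9.95%, which lies almost wholly before the exon.

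**Figure D2:**
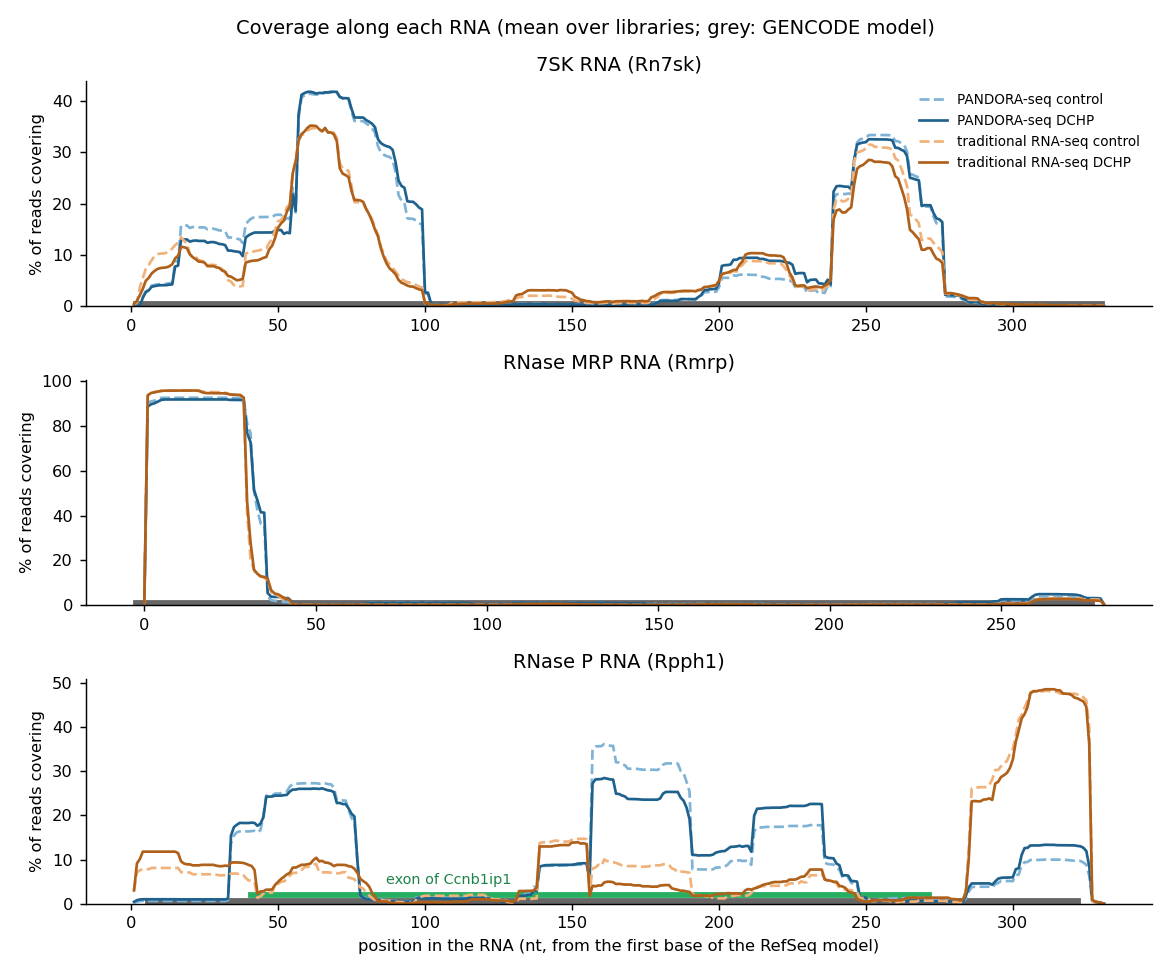
Share of each RNA's reads that cover a base (percent, mean over the libraries of a group) against position from the first base of the RefSeq locus, for Rn7sk, Rmrp and Rpph1, with 1 line per group and with models extended by bases read past the annotated ends. Rn7sk has separate internal stretches that include 239 to 276 in both methods, Rmrp has 1 stretch at its 5′ end, and Rpph1 has a stretch at the 3′ end beyond the Ccnb1ip1 exon that is higher in traditional libraries (peak 48.3%) than in PANDORA libraries (11.9%).

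The leading ends of Rn7sk reads were few. Values here are shares of the RNA's reads over the 9 PANDORA and 10 traditional libraries, and since each end was chosen as a leading one in a method, differences are a description with no test. Reads began at base 57 in 20.5% ± 3.51 (SD, 15.0 to 25.2) of PANDORA-seq reads and in 4.36% ± 1.36 (2.30 to 6.95) of traditional reads. They began at base 239 in 17.8% ± 4.47 (12.1 to 23.5) and 13.2% ± 6.27 (5.34 to 22.6). The start at 57 therefore separated the methods without overlap, and the start at 239 did not.

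The 3′ ends of Rn7sk reads differed likewise. The last base was 99 in 15.0% ± 3.95 (7.68 to 21.2) of PANDORA-seq reads and 2.76% ± 1.85 (0.284 to 6.78) of traditional reads. It was 276 in 13.9% ± 3.09 (10.1 to 18.8) and 6.95% ± 4.20 (2.65 to 13.7). It was 70 in 0.934% (0.631 to 1.25) and 5.13% (3.38 to 6.67), so this end was the second commonest in the traditional libraries, after base 276, and was rare in PANDORA-seq.

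As whole fragments, Rn7sk 239-276 made up 31.4 ± 8.65 RPM (20.6 to 46.6) in PANDORA-seq and 6.52 ± 5.87 RPM (1.20 to 17.05) in traditional RNA-seq. Rn7sk 57-99 made up 29.1 ± 9.57 RPM (15.1 to 46.2) and 1.66 ± 1.29 RPM (0.155 to 3.82). Rn7sk 17-55 made up 13.5 ± 5.93 RPM (7.41 to 22.8) and 0.802 ± 0.567 RPM (0.0697 to 1.67). The short Rn7sk 55-70 ran the other way, at 0.590 ± 0.239 RPM (0.272 to 0.951) in PANDORA-seq and 2.77 ± 1.28 RPM (1.14 to 5.43) in traditional RNA-seq. Rn7sk 239-264, a shorter read from the same start as Rn7sk 239-276, made up 7.43 ± 2.73 RPM in PANDORA-seq and 3.94 ± 3.99 RPM in traditional RNA-seq. Rn7sk 17-55 and Rn7sk 57-99 are nearly adjacent in the RNA, with only base 56 between them.

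Reads of Rn7sk were longer in PANDORA-seq. The mean length was 34.7, 34.0, 33.1 and 34.4 nt in PANDORA control and 34.6, 36.0, 32.6, 34.2 and 35.3 nt in PANDORA DCHP. It was 26.7, 25.5, 28.4, 27.99 and 27.97 nt in traditional control and 25.7, 28.8, 23.3, 27.6 and 25.4 nt in traditional DCHP. No library of 1 method reached the range of the other. The difference of means was 6.75 nt in controls (exact permutation test over all genes with at least 50 reads in every library, Benjamini-Hochberg adjusted p 0.0118) and 8.37 nt under DCHP (adjusted p 0.0117).

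Rpph1 reads were longer in PANDORA-seq by 9.76 nt in controls (33.8 ± 0.628 against 24.1 ± 3.28 nt, adjusted p of the exact test 0.0211) and by 9.95 nt under DCHP (34.4 ± 1.01 against 24.4 ± 2.19 nt, adjusted p 0.0117). With the extended model the Rpph1 difference was smaller, at 3.70 nt in controls (adjusted p of the exact test 0.0594) and 4.34 nt under DCHP (adjusted p 0.0220), and both were still called. In the traditional libraries the mean length of Rpph1 reads was 20.7, 24.5, 22.8, 23.0 and 29.4 nt in controls and 23.3, 26.0, 21.3, 26.8 and 24.8 nt under DCHP. Rmrp differed by only 2.18 nt in controls (32.4 ± 0.214 against 30.2 ± 0.533 nt, adjusted p of the exact test 0.0118) and 2.36 nt under DCHP (32.7 ± 0.188 against 30.3 ± 0.707 nt, adjusted p 0.0117). Longer reads in PANDORA-seq were the rule: 76.1% of the 373 genes tested in controls and 77.5% of the 408 tested under DCHP were called longer, 6.7% and 5.88% were called shorter, 82.8% and 83.3% were called either way, and the median difference was 4.21 and 4.48 nt. The 3 members stand on both sides of that median.

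The length classes show which reads made up the difference, counted with the annotated models. Fragments of 15 to 20 nt were 5.52% of Rn7sk reads in PANDORA-seq against 30.9% in traditional RNA-seq, and 4.60% and 43.8% of Rpph1 reads. With the extended model they were 4.53% and 23.0% of Rpph1 reads, and fragments of 40 to 45 nt rose in traditional RNA-seq from 5.83% to 31.5%, against 30.2% in PANDORA-seq. Of Rmrp reads, fragments of 15 to 20 nt were 1.11% and 2.21%. Fragments of 33 to 39 nt were 38.3% and 19.8% of Rn7sk reads, and fragments of 28 to 32 nt were 49.8% and 81.5% of Rmrp reads. At 45 nt, the longest read in the libraries, stood 5.77% and 1.66% of Rn7sk reads and 9.36% and 2.06% of Rpph1 reads, and any longer fragments of these RNAs were not seen.

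**Figure D3:**
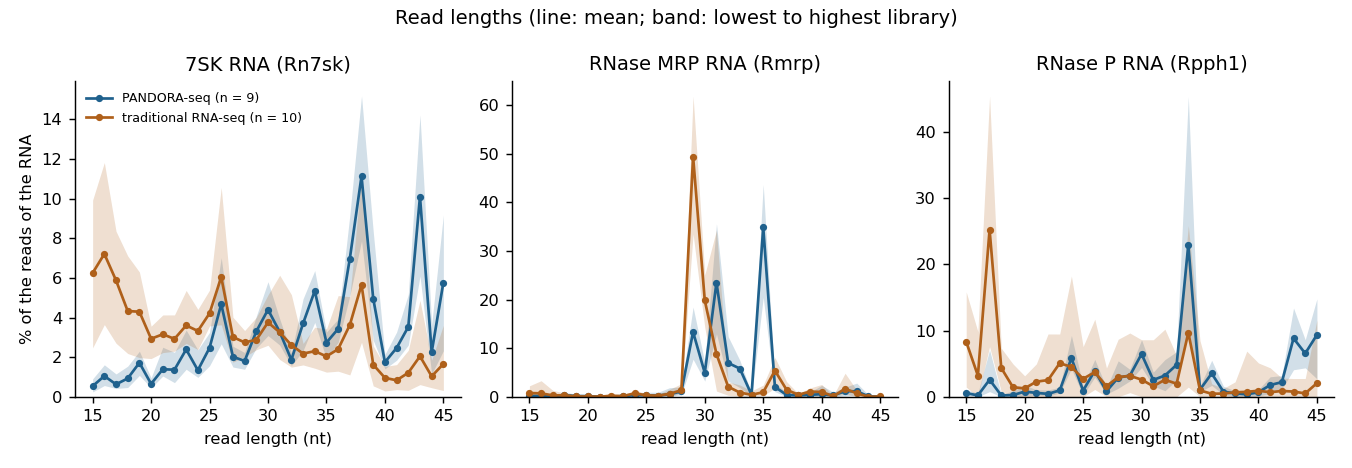
Share of each RNA's reads (percent) at each read length from 15 to 45 nt with the annotated models, as the mean over the 9 PANDORA and the 10 traditional libraries with a band from the lowest to the highest library. Rn7sk shows PANDORA-seq peaks at 38 and 43 nt (mean 11.1% and 10.1%), Rmrp shows peaks at 29 nt in traditional RNA-seq (49.4%) and at 31 and 35 nt in PANDORA-seq (23.5% and 34.9%), and Rpph1 shows a traditional peak at 17 nt (25.2%, but 11.7% with the extended model).

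Rmrp had the simplest set of ends. Reads began at base 1, the first base of the RefSeq locus, in 91.9% ± 2.15 (87.3 to 94.6) of PANDORA-seq reads and in 95.8% ± 2.60 (90.3 to 98.6) of traditional reads. The share of reads that began within 2 bases of the first base of the GENCODE ribozyme model was 94.4% ± 1.28 and 97.9% ± 1.09 in controls (adjusted p of the exact test 0.0318, called) and 93.8% ± 1.91 and 97.3% ± 1.80 under DCHP (adjusted p 0.0611, called). Counted at that first base itself, where few Rmrp reads began, the differences were −0.254 and −0.0297 percentage points, and neither was called. With the extended model the difference under DCHP was −4.48 percentage points and was not called. Between the methods, 51.7% of genes in controls and 57.1% under DCHP were called for this share, 41.6% and 52.0% of all genes as lower and 10.2% and 5.15% as higher in PANDORA-seq. The call under DCHP was lost, with adjusted p above 0.1, without PANDORA DCHP replicate 1, 3 or 4 or traditional DCHP replicate 1, 4 or 5 (differences between −3.43 and −2.82 percentage points).

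What differed in Rmrp was the last base of these 5′ reads. By mean, the read of 29 bases was the leading one in traditional RNA-seq, and the read of 35 bases in PANDORA-seq. Among reads that began at the 5′ end, those that stopped at base 35 were 39.3%, 21.8%, 41.7% and 37.0% in PANDORA control and 42.2%, 38.6%, 31.3%, 37.8% and 46.1% in PANDORA DCHP. They were 0.63%, 0.24%, 0.70%, 2.18% and 1.60% in traditional control and 1.11%, 0.76%, 0.59%, 0.58% and 0.63% in traditional DCHP. Every PANDORA library thus had at least 21.8% of its 5′ reads at this end and no traditional library had more than 2.18%.

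The end at base 29 went the other way. It took 15.3%, 13.1%, 8.25% and 10.9% of the 5′ reads in PANDORA control and 10.99%, 14.7%, 17.2%, 18.4% and 19.2% in PANDORA DCHP. It took 57.1%, 62.9%, 54.2%, 44.3% and 49.0% in traditional control and 42.0%, 34.8%, 44.6%, 58.9% and 61.9% in traditional DCHP. The end at base 31 separated the methods less well, at 21.4%, 37.6%, 22.3% and 28.01% in PANDORA control, 26.2%, 27.2%, 28.1%, 18.7% and 13.1% in PANDORA DCHP, 7.12%, 1.36%, 10.1%, 4.73% and 3.77% in traditional control and 4.38%, 35.8%, 19.1%, 2.55% and 2.88% in traditional DCHP. Here traditional DCHP replicates 2 and 3 lay within the PANDORA range, and base 31 took more reads than base 35 in PANDORA control replicate 2 and more than base 29 in traditional DCHP replicate 2.

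The corresponding fragments were Rmrp 1-35 at 5.96 ± 3.19 RPM in PANDORA-seq (n = 9) and 0.397 ± 0.253 RPM in traditional RNA-seq (n = 10), and Rmrp 1-29 at 2.13 ± 1.27 and 29.96 ± 26.3 RPM. Rmrp 1-31 was at 3.56 ± 1.35 and 4.55 ± 6.49 RPM and Rmrp 1-30 at 0.716 ± 0.395 and 10.9 ± 6.64 RPM. Per total read the 29-base and 30-base fragments were thus lower in PANDORA-seq, the 35-base fragment was higher, and the 31-base fragment overlapped. The group means at base 35 were 34.9% ± 8.97 (SD, n = 4) in PANDORA control, 39.2% ± 5.54 (n = 5) in PANDORA DCHP, 1.07% ± 0.795 (n = 5) in traditional control and 0.734% ± 0.225 (n = 5) in traditional DCHP. Those at base 29 were 11.9% ± 3.02, 16.1% ± 3.32, 53.5% ± 7.19 and 48.4% ± 11.5. Control and DCHP libraries overlapped at all 3 ends in both methods. The ends were chosen as leading ones, so these differences carry no test.

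**Figure D4:**
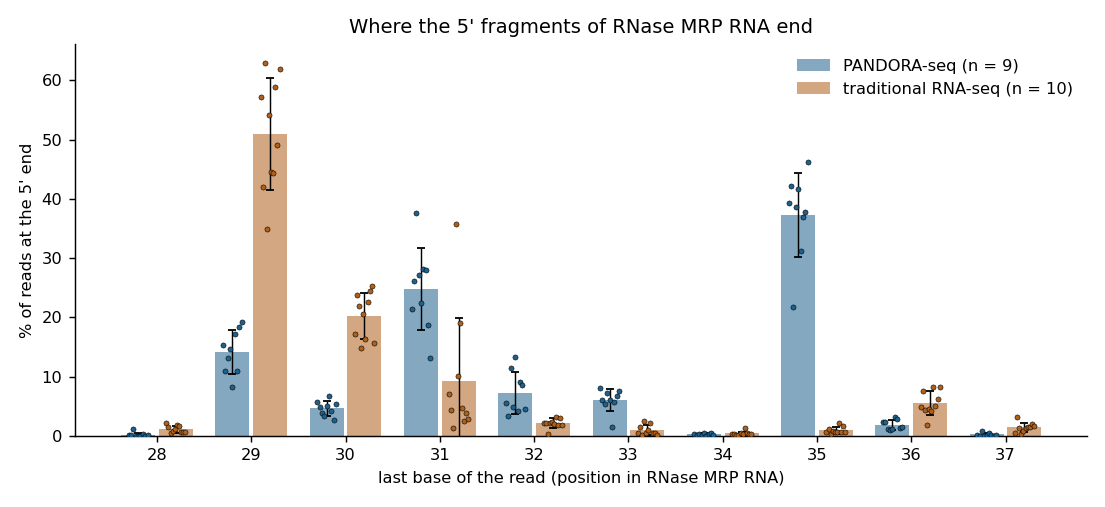
Share of Rmrp reads from the 5′ end (percent) that stop at each base from 28 to 37, as bars for the mean ± SD over the 9 PANDORA and the 10 traditional libraries, control and DCHP together, with 1 point per library. By mean, base 29 is the commonest end in traditional libraries (51.0%) and base 35 in PANDORA libraries (37.3%), with few traditional reads at 35.

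Reads from the far ends of the other RNAs were rare in the annotated models. Rn7sk reads that began within 2 bases of its first base were 0.0763% ± 0.0366 in PANDORA control, 0.0857% ± 0.0288 in PANDORA DCHP, 3.72% ± 4.77 in traditional control and 2.18% ± 0.919 in traditional DCHP. The difference between methods passed the exact test under DCHP (adjusted p 0.0173) and missed it in controls (adjusted p 0.102), where traditional control replicate 2 stood at 12.1%. The controls passed when any 1 of the 5 traditional control libraries was left out, with differences between −4.42 and −1.55 percentage points, the latter without replicate 2. With 1 of these left out the groups are of equal size. Groups of equal size that do not overlap always reach the smallest p of this test, so these passes are no added support. Rn7sk reads at this end also matched other genes: among reads of no other small RNA gene the share was 0 in every library, so the difference was 0.0 and the call under DCHP ended. Rmrp reads that ended within 2 bases of the last base of the ribozyme model were 1.17% ± 0.614 and 0.539% ± 0.413 in controls (adjusted p 0.275 by the exact test) and 1.64% ± 0.530 and 0.650% ± 0.677 under DCHP (adjusted p 0.0987, called), against 40.2% of all genes tested called in each comparison, 22.8% and 22.1% of all genes as higher and 17.4% and 18.1% as lower. The Rmrp call under DCHP was lost without any one of PANDORA DCHP replicates 1 to 4 or traditional DCHP replicates 1, 4 and 5 (differences between 0.841 and 1.05). Rmrp reads that ran more than 2 bases past the ribozyme model do not count in this share. With the extended model, which reaches further, the difference in controls turned and the call under DCHP was lost.

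No length or end share of the 3 passed the threshold between DCHP and control, but these tests could hardly call any gene. The smallest p they allow is 0.00794, and after adjustment a call needed at least 34 genes at so small a p in PANDORA-seq, or 46 in traditional RNA-seq. The absence of calls therefore says little about the effect of DCHP. The largest difference in mean length was −1.14 nt for Rn7sk in traditional RNA-seq (adjusted p of the exact test 0.697), and Rmrp in PANDORA-seq differed by 0.278 nt (exact p = 0.0635 before and 0.913 after adjustment). The background was 0.0% called for each of the 3 measures, over 419 genes in PANDORA-seq, with 577 in traditional RNA-seq, where 24, 29 and 12 genes and 35, 29 and 10 genes had an unadjusted exact p below 0.05 for length, 5′ share and 3′ share.

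The annotated model of Rpph1 leaves out part of its reads. Over all libraries 2800 reads ran past its annotated 3′ end, with the added bases CTC in 1986 and CT in 538, and 374 ran past its annotated 5′ end. Rmrp had 523 reads past its annotated 3′ end, 409 of them with TT as the added bases. Rpph1 reads that reached the annotated last base or ran past it are called 3′ terminal reads here. They were counted only where they matched the last bases of the annotated model exactly. As a share of all Rpph1 reads on the extended model, where 1 mismatch was allowed, they were 9.42% ± 0.791 (8.70 to 10.5) in PANDORA control, 12.6% ± 4.68 (8.88 to 20.2) in PANDORA DCHP, 42.7% ± 2.46 (40.5 to 46.8) in traditional control and 41.4% ± 8.15 (33.5 to 52.8) in traditional DCHP. The methods did not overlap (exact permutation p = 0.00794 in controls and under DCHP), and control and DCHP did (p = 0.222 and 0.738 by the same test). The extended model and the class of terminal reads were taken from reads of these same libraries, after the data were seen. These p-values therefore describe the separation and are no independent test. No share over all genes was computed for this measure. With 1 mismatch allowed, reads that ended within 2 bases of base 326 were 8.17% to 19.8% of Rpph1 reads in PANDORA libraries. They were 33.8% to 60.8% in traditional libraries, so the exact count leaves out some terminal reads.

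The level of 3′ terminal Rpph1 reads overlapped between the methods, whereas that of reads inside the Ccnb1ip1 exon did not. Terminal reads, counted by exact match, were at 2.50 ± 0.930, 4.41 ± 4.08, 3.75 ± 1.57 and 5.48 ± 3.47 RPM in PANDORA control, PANDORA DCHP, traditional control and traditional DCHP (exact permutation p between methods 0.198 in controls and 0.683 under DCHP). PANDORA DCHP replicate 5 alone had 11.2 RPM of them, and without it the mean of that group was 2.71 RPM. Reads inside the exon were at 19.7 ± 8.29, 19.98 ± 10.5, 3.62 ± 1.12 and 4.15 ± 0.7003 RPM (exact permutation p = 0.00794 in both). Both classes of reads were defined after the data were seen. Of the 18.1 RPM by which the extended-model Rpph1 level was higher in PANDORA-seq in controls, reads inside the exon accounted for 16.1 RPM. Reads not wholly inside the exon, such as Rpph1 34-76, were at 7.08 ± 2.16, 10.1 ± 6.18, 5.04 ± 2.13 and 8.27 ± 4.90 RPM in the same order of groups, and their ranges overlapped between the methods.

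The number of reads inside the exon per 3′ terminal read does not depend on the scale of a library. It is raised where terminal reads carry a mismatch, since these were left out, while reads inside the exon could carry 1. It was 7.82, 8.28, 6.03 and 8.89 in PANDORA control and 7.73, 4.68, 8.19, 5.86 and 3.24 in PANDORA DCHP. It was 1.01, 0.974, 0.768, 1.17 and 1.08 in traditional control and 1.38, 0.516, 1.15, 1.22 and 0.518 in traditional DCHP. The lowest PANDORA library was above the highest traditional one, and the exact permutation test gave p = 0.00794 in controls and under DCHP. DCHP and control did not differ past that spread (exact p = 0.159 in PANDORA-seq, with 0.817 in traditional RNA-seq). This measure was chosen after the data were seen.

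With the extended model, the Rpph1 level was higher in PANDORA-seq by 1.63 on the log2 scale in controls (edgeR adjusted p 0.00104) and 1.28 under DCHP (adjusted p 0.0147), and both were called. Without the reads inside the exon it was higher by 0.49 (edgeR adjusted p 0.236) and 0.30 (adjusted p 0.600), and the calls ended.

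**Figure D5:**
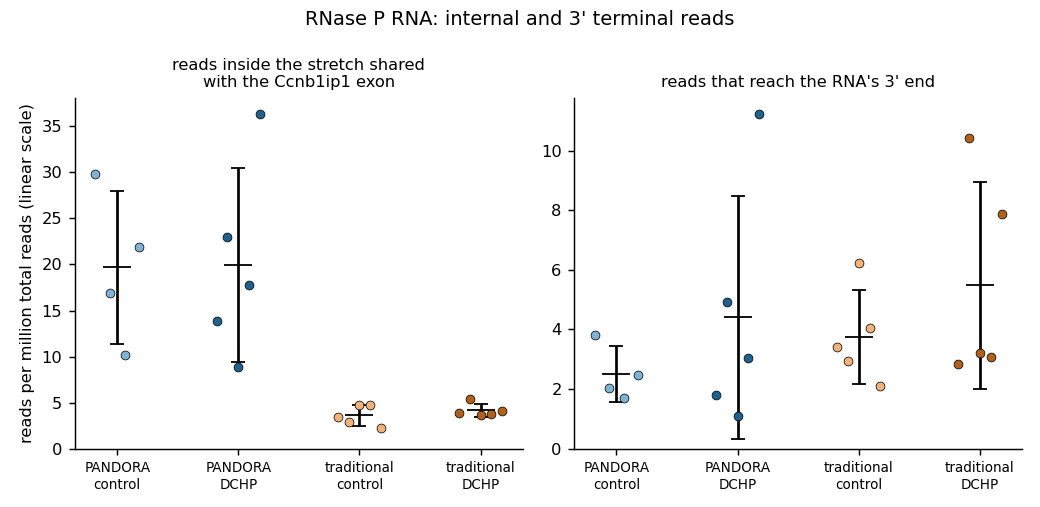
Level of Rpph1 reads wholly inside the Ccnb1ip1 exon and of 3′ terminal reads (exact matches), in RPM, with 1 point per library and bars for the mean ± SD in the 4 groups. Reads inside the exon separate the methods (mean 19.7 and 19.98 against 3.62 and 4.15 RPM), and the 3′ terminal reads overlap.

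As whole fragments, Rpph1 157-190 was at 5.94 ± 5.08 RPM (0.880 to 15.4) in PANDORA-seq and 0.261 ± 0.173 RPM (0.0517 to 0.588) in traditional RNA-seq. Rpph1 191-235 was at 1.91 ± 1.08 and 0.0686 ± 0.141 RPM, and Rpph1 34-76 at 1.66 ± 0.724 and 0.0235 ± 0.0444 RPM. Rpph1 139-155 ran the other way but overlapped, at 0.464 ± 0.156 (0.249 to 0.704) and 0.831 ± 0.614 RPM (0 to 1.62). Rpph1 132-155 was at 0.219 ± 0.0941 in PANDORA-seq and 0.141 ± 0.317 RPM in traditional RNA-seq. For this fragment, Rpph1 191-235 and Rpph1 34-76 the traditional SD exceeded the mean, so these values were uneven between libraries. The terminal fragment Rpph1 286-326 was at 0.156 ± 0.128 and 0.897 ± 0.610 RPM.

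The leading ends of Rpph1 followed the same division. With the annotated model, reads began at base 157 in 28.7% ± 15.2 (12.8 to 53.6) of PANDORA-seq reads and 9.19% ± 7.35 (2.19 to 20.7) of traditional reads, and at base 34 in 15.5% ± 4.65 (8.32 to 23.0) and 1.27% (0 to 7.18). They began at base 139 in 5.87% ± 2.36 (3.12 to 10.5) and 23.6% ± 15.6 (3.45 to 45.5), and ended at base 155 in 3.81% ± 2.06 (1.46 to 8.24) and 27.1% ± 17.4 (1.72 to 53.2). The start at 34 separated the methods, and the others overlapped in their ranges. With the extended model the last base 326 led in the traditional libraries, at 37.0% ± 8.05 (22.6 to 49.1) against 6.78% ± 3.19 (3.31 to 13.7) in PANDORA-seq.

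The bases at which internal ends fell are given as a description. Of internal 5′ ends, 30.6% ± 6.89 of Rn7sk, 41.5% of Rmrp and 35.7% of Rpph1 ends in PANDORA-seq, and 27.5% ± 11.03, 39.3% and 28.8% in traditional RNA-seq, lay between a C and an A. Such steps make up 5.76%, 8.48% and 5.15% of the positions in these RNAs. The Rmrp values rest on the few reads that began past its 5′ end. They ranged over libraries from 28.3% to 59.5% in PANDORA-seq and from 16.7% to 55.0% in traditional RNA-seq. Internal 3′ ends lay at a step from C to A in 1.01%, 8.59% and 0.719% of PANDORA-seq reads and 1.57%, 2.84% and 1.75% of traditional reads, so Rmrp had the highest share in both methods. At a step from T to A lay 4.81% of Rmrp and 0.295% of Rn7sk ends in PANDORA-seq but 20.9% and 1.08% in traditional RNA-seq, and 0 of Rpph1. Steps from T to A make up 3.18% of positions in Rmrp, 2.73% in Rn7sk and 1.21% in Rpph1. Internal 3′ ends after a G were 26.7%, 2.52% and 27.7% in PANDORA-seq and 39.7%, 5.39% and 56.1% in traditional RNA-seq, fewest in Rmrp. Positions after a G make up 28.2%, 29.7% and 33.3% of Rn7sk, Rmrp and Rpph1, above all 3 PANDORA-seq shares. Internal 5′ ends after a G were 5.39% of Rn7sk and 19.1% of Rpph1 ends in PANDORA-seq but 20.1% and 6.87% in traditional RNA-seq, so the order of these RNAs turned with the method. The starts at base 239 of Rn7sk and at base 157 of Rpph1 lie at a step from C to A, and the start at base 57 of Rn7sk does not, so few sites carry these shares.

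Mismatches were more frequent in the traditional libraries, with the reads of all libraries of a method pooled, so no spread between libraries is given. Among reads of 25 to 45 nt, 8.06% of Rn7sk, 7.70% of Rmrp and 8.26% of Rpph1 reads of PANDORA-seq carried a mismatch, and 18.2%, 16.9% and 19.4% of traditional reads did. Among reads of 15 to 17 nt the RNAs differed more, at 4.38%, 14.7% and 13.0% in PANDORA-seq and 7.99%, 18.8% and 28.2% in traditional RNA-seq. That class held 609 of the 1570 traditional Rpph1 reads and 34 Rmrp reads of PANDORA-seq. Some mismatched reads matched another transcript exactly. Over all lengths these were 4.78% of the traditional Rpph1 reads and 0.298% of those of PANDORA-seq, so part of the Rpph1 mismatches may be reads of other RNAs.

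A list of 19 other RNAs of the same kinds (the RNA of the signal recognition particle, spliceosomal, Y, vault, telomerase and other small RNAs) gives the surroundings, and 17 of them were in the reference. In the comparison of DCHP with control 0 of 14 tested in PANDORA-seq and 0 of 17 in traditional RNA-seq were called, with median log2 fold changes of −0.09 and 0.63 against −0.06 and 0.31 over all genes. Between the methods in controls 5 were called higher in PANDORA-seq and 6 lower of 17, with a median of −0.37 against −1.53 over all genes, and under DCHP 4 higher and 8 lower, with a median of −0.81 against −1.94. Over all genes 16.9% were called higher and 55.3% lower in controls and 13.8% and 62.9% under DCHP. On the miRNA scale the counts of the list were 11 higher and 3 lower, and 10 higher and 3 lower, where 48.3% and 34.0% of all genes were called higher and lower in controls and 43.0% and 37.4% under DCHP. Higher in controls were Rn7s1, Rn7s2, Rnu11, Rnu1a1 and Rnu73b, and lower were Bc1, Rnu7, Rnu6, Terc, Rnu5g and Rny1. Under DCHP Rnu11 was not called, and Vaultrc5 and Rnu12 joined the lower ones. Rn7s1 and Rn7s2, which have near-identical sequences and whose reads cannot be told apart, were higher by 3.05 in controls and 2.18 under DCHP. Terc, the telomerase RNA, was lower, at −1.91 and −2.38 on the log2 scale of total reads but 0.26 and 0.13 on the miRNA scale, and Rnu6, the U6 RNA, was lower too, at −3.55 and −3.75 on total reads and −1.30 and −1.27 on the miRNA scale.

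The genes whose levels moved most like each member were found by Pearson's r of the deviations of log2(RPM + 0.1) from the group means over the 19 libraries, among 593 genes compared, and are a description. They were Snora74a (0.85), Snora68 (0.84) and Gm23240 (0.84) for Rn7sk, Mir423 (0.88), Mirlet7b (0.88) and Mirlet7c-2 (0.85) for Rmrp, and Gm24830, Gm26232 and Rnu1b6 (0.85 each) for Rpph1. The latter 3 had the same r and the same fitted values, so they cannot be told apart and count as 1 pattern. Between members r was 0.65 for Rn7sk with Rpph1, 0.55 for Rmrp with Rpph1 and 0.15 for Rn7sk with Rmrp. All values of a library share its total of reads, so a library rich in another class of RNA moves many genes together.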

How the data were processed

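Small RNA reads of mouse sperm were analysed from 19 libraries, 4 PANDORA control, 5 PANDORA DCHP, 5 traditional control and 5 traditional DCHP. The authors deposited, per library, raw read counts of each distinct sequence of 15 to 45 nt after adapter trimming, not normalized. The submitters' processing notes name mm10, and the study's methods describe annotation with the SPORTS tool, which was not used here.

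Each sequence was matched in the sense direction, with at most 1 mismatch, to the GENCODE M21 small RNA transcripts (GRCm38), and RefSeq gave the numbering and the locus of each member. A read that matched several classes was given to miRNA first, then to rRNA, then to tRNA, and last to the remaining small RNAs. Within a class the gene with the fewest mismatches took it, ties went to the member, and ties among other genes were split equally. Positions and ends were read from these matches. The members and lists were chosen with earlier results of these data known.

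Read counts were tested with edgeR 4.0.16 (quasi-likelihood, R 4.3.3) on genes with at least 10 reads in at least 4 libraries of the fit, with total reads as library size. Genes were called at an adjusted p below 0.1 and a fold above 2, and DESeq2 1.42.0 was an alternative. Mean read length and the share of reads within 2 bases of an annotated end were compared by exact two-sided permutation over libraries, for genes with at least 50 reads in every library, with Benjamini-Hochberg adjustment and a threshold of 0.1. Python 3.11.15, numpy 2.4.6, pandas 2.3.3, scipy 1.17.1 and matplotlib 3.10.9 were used. Likeness used a pseudocount of 0.1 RPM. Covered stretches are those with at least 5% of reads on each base.

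The named items were the 3 members, the 3 commonest fragments and leading ends of each in each method, a list of 19 other RNAs named where called, and the 3 genes most like each member. On simulated counts with an 8-fold change in 200 genes, edgeR recovered 86.5% and 89.5% of changed genes in the exposure comparisons (PANDORA-seq, traditional) and 90.5% and 86.0% in the method comparisons (control, DCHP), with 4.95%, 11.8%, 7.18% and 8.99% of calls false. The simulated dispersion was 0.3. The fitted common dispersions were lower, at 0.155 and 0.250 in the exposure comparisons and 0.216 and 0.187 in the method comparisons. The simulated shares are therefore not those at the spread of the data. Smaller changes were not simulated, so these shares do not give the power for a change near 2-fold. The printed results come from fits without a replicate block, and a block on the replicate number was an alternative in every comparison of groups. All 4 pairs of same-numbered control libraries correlated between the methods in their deviations (r 0.231 to 0.441 over 592 genes). In the other comparisons 4 of 5, 1 of 4 and 1 of 5 pairs passed 0.1. No genome sequence was used. PCR reads carry no molecular identifiers, so counts of reads are not counts of molecules.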

Additional observations from a re-analysis of the deposited data

Results flagged for a closer look

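Traditional control replicate 2 lay far from the other 4 traditional control libraries in 3 end shares. Of its Rn7sk reads 12.1% began within 2 bases of the first base, against 0.639% to 2.60% in the others. Of its Rpph1 reads 3.11% began within 2 bases of the annotated first base, against 0 in the others, but with the extended model, which reaches the 5′ end of the RNA, the share was 9.58%, against 4.89% to 8.73%. Further, 0.650% of its Rn7sk reads ended within 2 bases of the last base, against 0.0281% to 0.0929%. In all 45 groups were examined this way and 3 had such a library, where chance alone gives about 1 in 20. All 3 fell on this library, so they are not independent of each other. Where the others are all at 0, as for Rpph1, any other value is flagged. This library also had the highest share of miRNA reads, and the part of that in these shares was not tested.

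Some reads lay outside the annotated models. Over all libraries 2800 Rpph1 reads ran past its annotated 3′ end, 374 ran past its annotated 5′ end, and 523 Rmrp reads ran past its annotated 3′ end.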

How the results depend on the processing

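Differences are log2 folds for levels, nt for lengths and percentage points for end shares. Over the levels of the 3 RNAs, 190 of 207 values from another setting kept their direction and their side of the threshold. In the comparison of DCHP with control, directions turned only for small values. In PANDORA-seq the level of Rmrp was 0.019 on miRNA library sizes and that of Rpph1 −0.23 with the replicate block, and in traditional RNA-seq that of Rpph1 was −0.0084 with DESeq2's own size factors, under which the Rpph1 interaction was 0.0897. Between the methods in controls Rn7sk passed the fold limit on miRNA sizes (3.27), with TMM (1.93), with DESeq2's own size factors (1.99), with exact matches (1.09) and with reads of 18 nt or longer (1.16). Rmrp was 1.15 on miRNA sizes, −0.41 with TMM and −0.37 with DESeq2's own size factors in controls, and 0.32, −0.88 and −0.76 under DCHP. Rpph1 was 0.49 in controls and 0.30 under DCHP with the extended model and without reads inside the Ccnb1ip1 exon. The replicate block, which pairs libraries between the methods, gave 0.86, −1.36 and 2.46 for Rn7sk, Rmrp and Rpph1 in controls and 1.30, −2.34 and 2.27 under DCHP, and changed no call of a member in these or the exposure comparisons. It was not run for the interaction. Same-numbered pairs correlated above 0.1 in 1 of 4 and 1 of 5 cases in the exposure comparisons, but in 4 of 5 between the methods under DCHP. No source states what a shared number stands for.

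The number of genes called in PANDORA-seq under DCHP against control was 15 without a filter, 1 with exact matches and 1 with the replicate block, and in traditional RNA-seq it was 1 with DESeq2 on total reads. Between the methods it was 1846 without a filter and 453 with reads of no other small RNA gene in controls, and 2700 and 524 under DCHP. By share at the 5′ and the 3′ end, it was 114 and 79 genes in controls and 154 and 103 under DCHP with ends at the annotated end itself, and 55 and 33, and 70 and 32, with reads of no other small RNA gene. The count by 3′ share in controls, 150, became 0 without PANDORA control replicate 1 or 2 and 68 without replicate 4, where the smallest possible p rises from 0.00794 to 0.0179, and that by 5′ share, 193, became 113 without replicate 2.

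Of the lengths and end shares, DCHP against control in PANDORA-seq turned with ends at the annotated end itself, for the 5′ share of Rmrp (0.373) and the 3′ share of Rpph1 (−0.00017). In traditional RNA-seq it turned with ends at the end itself for the 5′ shares of Rn7sk (0.116) and Rmrp (0.148) and the 3′ shares of Rn7sk (0.00165) and Rpph1 (−0.601), with reads of 18 nt or longer for the 3′ share of Rmrp (−0.00133), and with extended models for the length of Rpph1 (−0.351), its 5′ share (3.96), its 3′ share (−1.24) and the 3′ share of Rmrp (−0.459). None of these passed the threshold. Between the methods in controls, at the end itself the 5′ share of Rn7sk was −0.313 and passed and that of Rmrp was −0.254 and no longer passed, and with extended models the 5′ share of Rpph1 was −7.17 and its 3′ share −37.6, both past the threshold, and the 3′ share of Rmrp −0.158. Under DCHP the 5′ share of Rn7sk was 0.0 with reads of no other small RNA gene, that of Rmrp was −0.0297 at the end itself and −4.48 with extended models, and the 3′ share of Rmrp was 0.989 with exact matches, 0.234 at the end itself, 0.988 with reads of no other gene and 1.06 with extended models, and these no longer passed. With extended models the Rpph1 5′ share was −10.8 and its 3′ share −33.1, past the threshold. The cause of these changes was not tested.

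With 1 library left out at a time, levels under DCHP against control ranged from −0.46 to 0.0876 for Rmrp and −0.21 to 0.33 for Rpph1 in PANDORA-seq and from −0.41 to 0.0489 for Rn7sk and 0.38 to 1.16 for Rmrp in traditional RNA-seq, the Rpph1 interaction from −0.51 to 0.0337 and the Rmrp interaction from −1.34 to −0.52. The Rn7sk level between methods in controls ranged from 0.79 to 1.21. For DCHP in traditional RNA-seq the lengths of Rmrp and Rpph1 ranged from −0.151 to 0.329 and −0.482 to 1.70, the 5′ shares of Rn7sk and Rmrp from −2.31 to 0.553 and −1.03 to 0.0179, and the 3′ shares of Rn7sk, Rmrp and Rpph1 from −0.101 to 0.0542, −0.0762 to 0.258 and −0.524 to 1.42. In PANDORA-seq the 5′ shares of Rn7sk and Rmrp ranged from −0.0057 to 0.0223 and −1.06 to 0.149. Between the methods in controls the 5′ and 3′ shares of Rn7sk ranged from −4.42 to −1.55 and −0.193 to −0.0379, and under DCHP the 5′ share of Rmrp from −4.10 to −2.82, its 3′ share from 0.841 to 1.19 and the 3′ share of Rpph1 from −2.27 to −0.631.

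Traditional Rpph1 values rest on 58 to 255 reads a library and on the model, with group means of 3.88 and 4.78 RPM against 8.66 and 12.4 RPM with the extended model. Reads of 45 nt are the longest, so the length of longer fragments is unknown. A count with flanking bases of the genome added at each end was not run, since no genome sequence was used, and models extended from the reads, chosen after the data were seen, took its place. So were the count without reads inside the Ccnb1ip1 exon and the one without mismatched reads that match another transcript exactly.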
